A study of Homo sapiens with 44 samples.

Results

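Oncostatin M (OSM) was compared directly with interleukin-6 (IL-6) in Ccd-18Co, an established fibroblast line from human colon. The comparison used 8 of 44 bulk RNA-seq libraries, the 4 labelled OSM and the 4 labelled IL6, and libraries were assigned by label. Earlier results of these data were known when the comparison was chosen. The 4 unstimulated libraries of the same experiment served as the baseline of both cytokines. All 12 cultures were starved of serum for 72 h, and the stimulated ones then received OSM or IL-6 at 10 ng/ml for 24 h. The comparison therefore covers 1 cell line, 1 dose of each cytokine and 1 time point. No source states that the 4 replicates of a group were separate cultures, so that p-values measure the spread between these libraries, part of which may be technical.

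OSM and IL-6 belong to the family of cytokines that signal through gp130, a receptor chain encoded by IL6ST. IL-6 first binds its own receptor IL6R, on the membrane or in soluble form, and the pair then recruits gp130. OSM binds gp130 and then the OSM receptor chain OSMR, or the LIF receptor chain LIFR. Both complexes activate JAK kinases and transcription factors of the STAT family, STAT3 above all, and the STAT3 target SOCS3 feeds back as an inhibitor of the receptor complex. Fibroblasts are known as responders to OSM, and hepatocytes and some leukocytes as responders to IL-6.

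The 4 OSM libraries held 1161973 to 1565446 estimated counts, the 4 IL-6 libraries 1486860 to 1627960 and the 4 unstimulated libraries 1365019 to 1725354. Fibroblast markers were abundant in every one of these libraries, and the sum of 12 markers was 29570 to 42990 CPM, the unit of counts scaled to a common library size. The epithelial marker EPCAM had at most 1 count, the leukocyte marker PTPRC 2 and the endothelial marker PECAM1 2 in any of the 12. The 8 epithelial markers summed to 27.27 to 39.58 CPM with OSM, 17.13 to 37.44 with IL-6 and 21.86 to 27.7 without stimulation, with 3, 2 and 4 of them at 0 in the group. The 8 leukocyte markers summed to at most 12.56 CPM and the 6 endothelial markers to at most 4.577 CPM in any library. The 5 smooth muscle markers, contractile genes that myofibroblasts also make, summed to 399.1 to 518.3 CPM with OSM, 407.5 to 863.7 with IL-6 and 349 to 1103 without stimulation. The part of other cell types in the results was not tested. Over the 500 genes that varied most among all 44 libraries, the mean profiles of OSM and IL-6 lay 24.62 apart, a Euclidean distance in log2 CPM. No other division of the 8 libraries into groups of 4 gave a longer distance (1-sided exact permutation test, p = 0.0286, the smallest p that 35 divisions allow, and 0.0429 after adjustment over 3 distances). OSM lay 25.48 from unstimulated cells (exact permutation p = 0.0286, adjusted p = 0.0429), whereas IL-6 lay 14.59 from them (exact permutation p = 0.8).

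SOCS3, TDO2, DIO2, SULF1 and CXCL12 were higher with OSM than with IL-6, and KCNJ2, CD274, FGL2 and CCL11 were lower. The threshold for a call was an adjusted p below 0.05 (edgeR, quasi-likelihood, adjusted by Benjamini-Hochberg) together with a log2 fold change beyond 1.5 in either direction. Of 9513 genes tested, 40 were called higher with OSM than with IL-6, 0.42% of all, and 57 were called lower, or 0.599%. At an adjusted p under 0.05 alone, 94 genes were higher (0.988%) and 160 were lower (1.68%). In all 40 genes called higher the 4 OSM libraries lay above the 4 IL-6 libraries, as they did in 4.51% of all genes tested. In 50 of the 57 genes called lower the OSM libraries lay below the IL-6 libraries, as in 5.62% of all genes. The calls rest on the same libraries, so that this separation follows largely from them. The median log2 fold change over all genes was 0. Each cytokine was also set against unstimulated cells. OSM then had 124 called genes (1.3% of all), and IL-6 had 1, CCL11 (0.0105%), with 233 genes at an unadjusted p under 0.05.

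**Figure D1:**
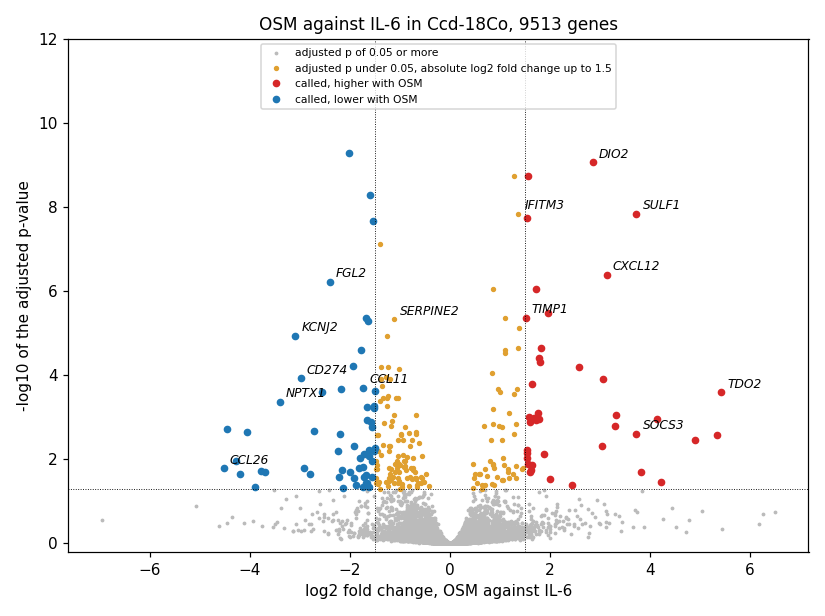
Each point is 1 of 9513 genes, with the log2 fold change of OSM against IL-6 on the x axis and the negative log10 of the adjusted p-value (edgeR, Benjamini-Hochberg) on the y axis. Red points are the 40 genes called higher with OSM, blue points the 57 called lower, orange points pass the adjusted p of 0.05 (lower dotted line) but not the fold threshold (vertical dotted lines at 1.5 in either direction), and grey points do not pass the adjusted p. The called genes reach further to the right (5.42 for TDO2) than to the left (-4.52 for CCL26).

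The genes called higher with OSM were placed against the baseline. The 4 IL-6 libraries overlapped the 4 unstimulated libraries in 37 of the 40 and lay below all of them in the other 3. Among the 57 genes called lower, IL-6 overlapped unstimulated cells in 56 and lay above all of them in 1, CCL11. Over all genes tested, the IL-6 libraries lay above all unstimulated libraries in 1.02% and below all of them in 1.16%.

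The receptor chains are described first, because OSMR and LIFR serve OSM and IL6R serves IL-6. Levels of different genes are given as CPM per kb of the canonical transcript, so that they can be compared. IL6ST, on chromosome 5 (55935095 to 55995022, minus strand, GRCh38), stood at 154, 166, 153 and 106 CPM per kb in the 4 OSM libraries. It stood at 106, 123, 133 and 109 in the IL-6 libraries and at 113, 89.0, 61.4 and 52.5 in the unstimulated ones. All 3 groups overlapped, and the log2 fold change of OSM against IL-6 was 0.30 ± 0.21 (SE, n = 4 in each group; adjusted p = 0.627). Against unstimulated cells IL6ST rose with OSM (log2 fold change 0.88, adjusted p = 0.00716). With IL-6 the log2 fold change was 0.58, and it did not pass (unadjusted p = 0.00809, adjusted p = 1).

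OSMR, on chromosome 5 (38845858 to 38945596, plus strand), was at 8.16, 13.0, 14.7 and 10.9 CPM per kb with OSM, against 6.10, 6.15, 3.78 and 8.74 with IL-6. The groups overlapped only through the lowest OSM and the highest IL-6 library, and the difference missed the threshold (log2 fold change 0.91, 95% interval 0.36 to 1.47, adjusted p = 0.0646). Against unstimulated cells, at 3.69 to 7.0 CPM per kb, OSMR rose with OSM (log2 fold change 1.04, adjusted p = 0.021). LIFR was at 0.635 to 1.95 CPM per kb with OSM, 0.801 to 3.22 with IL-6 and 1.81 to 2.55 without stimulation. Its log2 fold change of OSM against IL-6 was -0.47 (95% interval -1.59 to 0.65, adjusted p = 0.83).

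IL6R was at the edge of detection. Its counts were 10, 5, 3 and 1 in the OSM libraries, 4, 1, 1 and 9 in the IL-6 libraries and 8, 3, 0 and 4 in the unstimulated ones, so that it did not pass the filter on low counts. Per kb, this was 0.391 ± 0.392 CPM (SD, n = 4) with IL-6, where OSMR stood at 6.19 ± 2.03 and IL6ST at 118 ± 12.4. In each of the 12 libraries IL6R was therefore below OSMR and IL6ST per kb of transcript. IL11RA, the receptor of another cytokine of the family, had at most 4 counts in any library. RNA levels do not give the amount of receptor on the membrane or in soluble form. Of the list of 10 receptor chains and receptor-shedding proteases, 5 were tested and 0 passed for OSM against IL-6, with a median log2 fold change of 0.16.

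**Figure D2:**
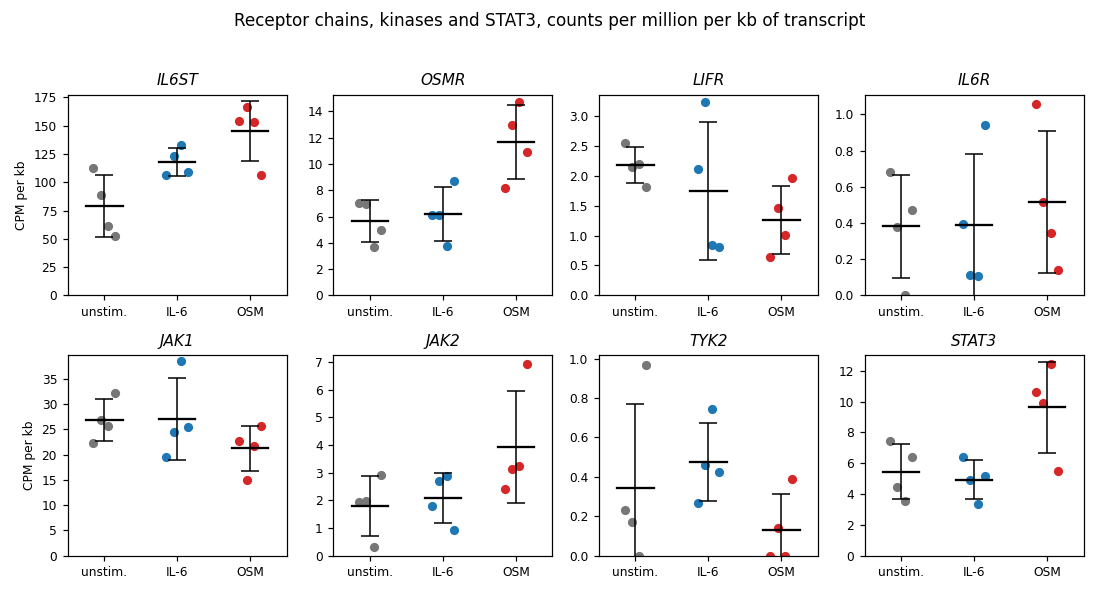
CPM per kb of the canonical transcript on the y axis, with unstimulated, IL-6 and OSM on the x axis. Points are single libraries, the horizontal line is the mean of 4 and the bars are the SD. IL6ST, OSMR, IL6R, JAK2 and STAT3 have their highest mean with OSM, and LIFR, JAK1 and TYK2 their lowest. IL6R is at most 1.06 CPM per kb in all 12 libraries.

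Among the signalling genes downstream of the receptors, 0 of 15 tested members of the JAK-STAT list passed, and their median log2 fold change was 0.24. STAT3, the main transcription factor of the pathway, was at 10.6, 9.88, 12.5 and 5.53 CPM per kb with OSM and at 6.38, 4.92, 3.34 and 5.15 with IL-6. The groups overlapped through 1 OSM library, and the log2 fold change was 0.96 (95% interval 0.33 to 1.59, adjusted p = 0.0976). The 3 tested genes for ligands of the family also did not pass. The log2 fold changes of OSM against IL-6 were -0.24 for IL6, 0.30 for LIF and -0.02 for IL11, and OSM itself had 0 counts in all 12 libraries.

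SOCS3 was the feedback inhibitor that differed. SOCS3, on chromosome 17 (78356778 to 78360077, minus strand), was at 34.7, 29.1, 28.7 and 42.1 CPM with OSM. It was at 0.571, 1.31, 2.53 and 5.43 CPM with IL-6 and at 0.979, 0, 2.11 and 1.37 CPM in unstimulated cells. Every OSM library lay above every other library, and IL-6 overlapped unstimulated cells. SOCS3 was higher with OSM than with IL-6 by 3.73 ± 0.79 on the log2 scale (SE, adjusted p = 0.00248). IL-6 against unstimulated cells gave 1.09, which did not pass (unadjusted p = 0.234, adjusted p = 1). The other 4 tested SOCS genes did not pass, with log2 fold changes from -0.93 for SOCS2 to -0.40 for SOCS5, and the median of the list was -0.47. SOCS1 had at most 6 counts and CISH at most 4 in any of the 12 libraries.

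Of 26 tested genes of the STAT3 target list, 3 rose with OSM over IL-6, 0 fell and 23 did not pass, with a list median of 0.45 against 0 over all genes. Over all genes tested, 0.988% rose and 1.68% fell by the rule used for every list, an adjusted p under 0.05 alone. No list count was tested against these shares. TIMP1, an inhibitor of matrix metalloproteinases, was at 5491, 4862, 4467 and 3792 CPM with OSM and at 1768, 1507, 1592 and 1667 CPM with IL-6. The unstimulated libraries were at 1185 to 2061 CPM, within which the IL-6 libraries fell. TIMP1 was higher with OSM by 1.51 ± 0.21 (adjusted p = 4.24e-06), just past the fold threshold. The fold fell under that threshold without OSM replicate 1 (1.43), OSM replicate 2 (1.49) or IL-6 replicate 2 (1.49), at adjusted p-values up to 8.13e-05. NAMPT, an enzyme of NAD synthesis that is also secreted, was at 576, 812, 847 and 854 CPM with OSM and at 112, 155, 286 and 391 CPM with IL-6 (log2 fold change 1.71 ± 0.34, adjusted p = 0.00116). Without IL-6 replicate 1, its lowest library, the log2 fold change of NAMPT was 1.49 (adjusted p = 0.0116). HIF1A, a subunit of the hypoxia-inducible factor, was at 1513 to 1619 CPM with OSM against 608 to 990 CPM with IL-6, a log2 fold change of 0.96 (adjusted p = 0.000217).

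Acute-phase and complement genes, which the liver makes under IL-6 in inflammation, were mostly too low to test. Of 30 members 10 were tested, and their median log2 fold change was 0.25. LBP, which carries bacterial lipopolysaccharide to its receptor, fell below the filter on low counts. It had 9, 13, 9 and 7 counts in the OSM libraries, 0 in each IL-6 library and 1 count over the 4 unstimulated libraries, and it was given no test. The liver genes CRP, SAA1, FGA and ORM1 had 0 counts in all 12 libraries.

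The 15 genes with the largest positive log2 fold changes included SOCS3, TDO2, DIO2 and SULF1. TDO2, which opens the ring of tryptophan on the way to kynurenine, was at 74.3, 68.8, 96.1 and 66.8 CPM with OSM and at 0, 2.62, 1.27 and 3.02 CPM with IL-6. Unstimulated cells were at most at 1.46 CPM. The groups did not overlap, and TDO2 was higher with OSM by 5.42 ± 0.97 (adjusted p = 0.000252), the largest positive log2 fold change among the genes named.

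DIO2, the deiodinase that makes active thyroid hormone, was the most abundant of the 15 genes with the largest positive log2 fold changes. It was at 3101, 4095, 4368 and 4709 CPM with OSM, at 544, 499, 533 and 680 CPM with IL-6 and at 405 to 671 CPM without stimulation (log2 fold change against IL-6 2.85 ± 0.27, adjusted p = 8.56e-10). IL-6 lay among the unstimulated libraries, with a log2 difference of 0.03. An annotated antisense transcript, DIO2-AS1, overlaps the gene, and no source states that strand was used in counting. SULF1, a sulfatase that trims heparan sulfate outside the cell, was at 729, 592, 612 and 711 CPM with OSM and at 66.8, 55.6, 37.3 and 39.9 CPM with IL-6 (3.72 ± 0.41, adjusted p = 1.45e-08). CHI3L1, a secreted chitinase-like glycoprotein, was at 81.0, 67.6, 61.4 and 54.4 CPM with OSM and at 2.28, 7.19, 12.0 and 5.43 CPM with IL-6 (3.29 ± 0.67, adjusted p = 0.00159). In SULF1 and CHI3L1 the IL-6 libraries overlapped the unstimulated ones.

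IL24, WNT2, CCK and AGT also rose, from at most 4.83 CPM with IL-6. IL24, a cytokine of the IL-10 family, was at 18.9, 25.5, 16.7 and 22.3 CPM with OSM. It was at 0 in 3 IL-6 libraries and at 2.42 CPM in the fourth (4.91 ± 1.06, adjusted p = 0.00352). WNT2, a Wnt ligand, was at 7.92, 8.30, 7.34 and 14.8 CPM with OSM and had a single count over the 4 IL-6 libraries, a ratio of 60.4 in depth-adjusted counts (exact 95% interval 10.4 to 2429, counting error only; edgeR adjusted p = 0.00263). Outside OSM, WNT2 reached at most 8.07 CPM, with TGFB1, so that it passed the filter on low counts through its OSM libraries. SOCS3 and AGT likewise passed that filter through their OSM libraries. Outside OSM, AGT reached at most 14.1 CPM, with IL-22. CCK, the peptide hormone cholecystokinin, was at 12.2, 15.4, 14.7 and 28.9 CPM with OSM and at 0.571 to 1.31 CPM with IL-6 (4.14 ± 0.82, adjusted p = 0.0011). AGT, the precursor of angiotensin, was at 21.3, 36.2, 36.0 and 30.5 CPM with OSM and at 2.28, 0, 1.27 and 4.83 CPM with IL-6 (3.82 ± 0.99, adjusted p = 0.0202). The adjusted p of AGT was 0.0646 without OSM replicate 2, 0.0597 without OSM replicate 3, and 0.0611, 0.088 and 0.0828 without IL-6 replicates 1, 2 and 3.

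The other genes with the largest rise were GUCY1A1, a subunit of the nitric oxide receptor guanylate cyclase, the retinoid-responsive gene RARRES1, the dynein heavy chain gene DNAH5, C17orf67 and TEX29. GUCY1A1 was at 66.8 to 107 CPM with OSM and at 4.83 to 11.8 CPM with IL-6 (3.32 ± 0.65, adjusted p = 0.000879). RARRES1 was at 61.5 to 84.2 CPM against 7.99 to 17.5 CPM (2.57 ± 0.42, adjusted p = 6.43e-05), and C17orf67 was at 71.7 to 94.8 CPM against 9.16 to 13.1 CPM (3.05 ± 0.52, adjusted p = 0.000121). DNAH5 differed from these in its baseline. It was at 11.5 to 26.0 CPM with OSM and at 1.142 to 3.27 CPM with IL-6 (3.05 ± 0.68, adjusted p = 0.00482), while unstimulated cells stood at 4.37 to 11.6 CPM, above IL-6 and overlapping OSM. TEX29 had 3 counts over the 4 IL-6 libraries, and the ratio of OSM to IL-6 was 21.9 (exact 95% interval 7.16 to 109, adjusted p = 0.0345). Its adjusted p was 0.0687 to 0.14 when any single one of the 8 OSM and IL-6 libraries was left out.

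**Figure D3:**
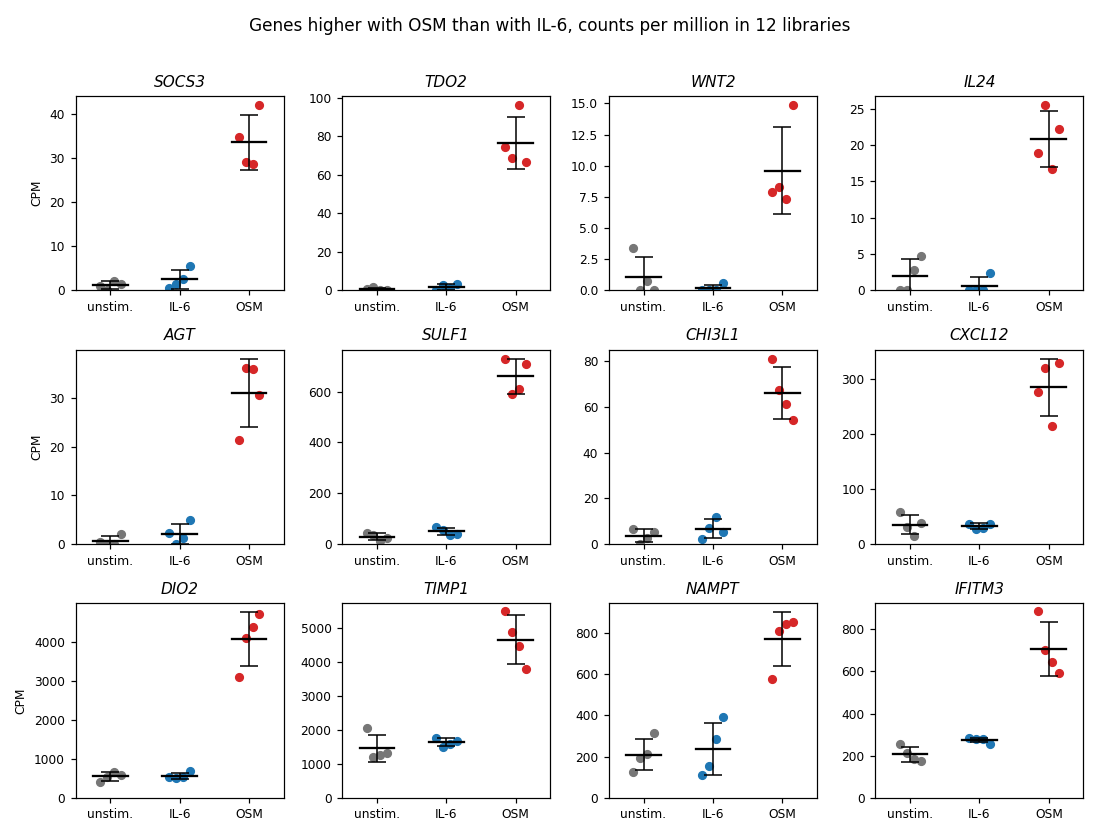
CPM of 12 genes higher with OSM than with IL-6 on the y axis, each panel with its own scale, for unstimulated, IL-6 and OSM on the x axis. Points are single libraries, the horizontal line is the mean of 4 and the bars are the SD. In every panel the 4 OSM libraries lie above the 4 IL-6 libraries, and in all panels but that of IFITM3 the IL-6 libraries overlap the unstimulated ones.

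STAT dimers bind DNA at sites with the letters TTCNNNGAA, and the 250 bases before each gene's start were searched for them on both strands. The letters are palindromic, so that a match on 1 strand is a match on the other, and TTCCNGGAA is a stricter form contained in them. Of the 40 genes called higher, 34 had such a window in the RefSeq table (GRCh38.p14), and 4 held the letters, AGT, DIO2, DNAH5 and IFITM1, the last named here for this match alone. This was 11.8%, against 6.17% of the windows of tested genes and 6.78% of all windows in the table. Of the 57 genes called lower 42 had a window, and 1 held the letters, CD274 (2.38%). The stricter letters were in 1 of the 34 windows, that of AGT, and in 1.11% of the windows of tested genes. The window of SOCS3 held neither. Among named genes that passed the adjusted p but not the fold threshold, CXCL6, THBS1 and EGR1 also held the letters TTCNNNGAA, 94, 207 and 228 bases before the start. The matches of the 4 named genes past both thresholds, AGT, DIO2, DNAH5 and CD274, are shown with 10 bases on either side, with the motif in capitals, 5′ to 3′ on the strand of the gene. A match is a run of letters and was not tested for binding.

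AGT: tcactaagacTTCCTGGAAgaggtcccag
DIO2: ccatttctgcTTCTTTGAAagaggagaca
DNAH5: tttctcattgTTCAAAGAAactatttaga
CD274: ttccgccgatTTCACCGAAggtcaggaaa

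The match of AGT lay at chr1:230714274-230714302 on the minus strand, 170 bases before the RefSeq start, within a leading exon of longer transcripts annotated by GENCODE 44. That of DIO2 lay at chr14:80211632-80211660 on the minus strand, 146 bases before the start and within introns of longer transcripts. That of DNAH5 lay at chr5:13944849-13944877 on the minus strand, 179 bases before the start and in an intron of a longer transcript. That of CD274 lay at chr9:5450407-5450435 on the plus strand, 125 bases before the start, where no transcript was annotated.

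Of 6 tested CC chemokines 0 rose and 2 fell with OSM relative to IL-6, CCL11 and CCL26. CCL11, or eotaxin-1, attracts eosinophils and lies on chromosome 17 (34285742 to 34288334, plus strand). It was at 109, 343, 333.5 and 334.5 CPM with IL-6, in replicates 1 to 4. It was at 100, 75.3, 80.1 and 80.8 CPM with OSM and at 91.6, 66.3, 64.0 and 72.4 CPM without stimulation. All 4 IL-6 libraries lay above the other 8, but IL-6 replicate 1 only narrowly. CCL11 was lower with OSM than with IL-6 by -1.73 ± 0.30 on the log2 scale (adjusted p = 0.000196). It was the 1 gene past an adjusted p of 0.05 for IL-6 against unstimulated cells (log2 fold change 1.92, adjusted p = 0.00123). With only the 8 libraries of those groups in the fit, this adjusted p was 0.0933. OSM against unstimulated cells gave 0.19 (adjusted p = 0.847). Among all 10 cytokines the mean of CCL11 was highest with IL-13 (1550 CPM), followed by IFNA (710 CPM), TNF (370 CPM) and IL-6 (280 ± 114 CPM, SD, n = 4).

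CCL26, or eotaxin-3, moved on the same side at a far lower level. It had a single count over the 4 OSM libraries and was at 3.43, 6.54, 5.70 and 7.25 CPM with IL-6. The ratio of IL-6 to OSM was 34.3 (exact 95% interval 5.78 to 1391, adjusted p = 0.0164). The adjusted p was 0.0752 without OSM replicate 1 and 0.0727 without OSM replicate 2, and the IL-6 libraries overlapped the unstimulated ones at 0 to 3.65 CPM. With IL-13 its mean was 908 CPM. The other 4 tested members of the list, CCL2, CCL7, CCL8 and CCL20, did not pass, and the list median was -0.54.

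Among CXC chemokines 2 of 12 tested genes rose with OSM over IL-6, 0 fell, and the median was 0.56. CXCL12, the ligand of CXCR4, was at 277, 320, 214 and 328 CPM with OSM and at 37.1, 28.1, 28.5 and 36.2 CPM with IL-6 (3.13 ± 0.39, adjusted p = 4.08e-07), with unstimulated cells at 14.1 to 57.8 CPM. CXCL6, a neutrophil attractant, was at 261, 383, 346 and 417 CPM with OSM and at 101, 110, 212 and 248 CPM with IL-6 (1.07 ± 0.25, adjusted p = 0.00919). Its adjusted p was 0.057 without IL-6 replicate 1 and 0.0551 without IL-6 replicate 2. CXCL8, another neutrophil attractant, was at 21.3 to 28.9 CPM with OSM and at 13.7, 113, 135 and 229 CPM with IL-6, and it did not pass (log2 fold change -2.29, adjusted p = 0.181). Unstimulated replicate 4 reached 554 CPM of CXCL8. ACKR3, a scavenging receptor of CXCL12, was lower with OSM, with 2 counts over the 4 OSM libraries against 4.23 to 7.59 CPM with IL-6, a ratio of IL-6 to OSM of 15.8 (exact 95% interval 4.04 to 135, adjusted p = 0.0195). This call was lost without OSM replicates 2, 3 or 4 or IL-6 replicate 3, at adjusted p-values up to 0.0993, and when all genes with any count were tested (0.0677).

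The genes lower with OSM than with IL-6 were placed against the baseline in the same way. In 52 of the 57 called genes the OSM libraries also lay below all 4 unstimulated libraries. These genes were called for low values in the same OSM libraries, so that much of this follows from their selection. The share was 5.48% over all genes tested, which were not selected in this way. KCNJ2, an inwardly rectifying potassium channel, was at 35.3, 36.2, 34.7 and 54.4 CPM with OSM, at 309, 309, 429 and 319 CPM with IL-6 and at 262 to 475 CPM without stimulation (log2 fold change against IL-6 -3.10 ± 0.46, adjusted p = 1.16e-05). CD274, which encodes the checkpoint ligand PD-L1, was at 1.83, 3.56, 2.67 and 9.89 CPM with OSM and at 31.4, 19.6, 60.8 and 26.0 CPM with IL-6 (-2.99 ± 0.51, adjusted p = 0.000118). FGL2, a fibrinogen-like protein with prothrombinase activity, was at 18.9, 16.0, 18.7 and 11.5 CPM with OSM and at 119, 78.5, 81.6 and 69.4 CPM with IL-6 (-2.40 ± 0.31, adjusted p = 5.94e-07). In all 3 genes the IL-6 libraries overlapped the unstimulated ones.

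RGS4, BIRC3, MAP2, NPTX1 and LUZP2 were also lower with OSM than with IL-6. RGS4, which shortens G protein signals, was at 0, 0.593, 0 and 2.47 CPM with OSM and at 17.1, 8.50, 10.8 and 13.9 CPM with IL-6 (-4.05 ± 0.85, adjusted p = 0.00223). BIRC3, an inhibitor of apoptosis and NF-κB target, was at 0, 0, 0.667 and 3.30 CPM with OSM and at 9.71, 15.0, 20.2 and 5.43 CPM with IL-6 (-3.77 ± 0.97, adjusted p = 0.0185). The call of BIRC3 was lost without OSM replicate 1 (adjusted p = 0.0943), OSM replicate 2 (0.0925), OSM replicate 3 (0.0659) or IL-6 replicate 3 (0.0841). The microtubule-associated protein MAP2 had 3 counts over the 4 OSM libraries, against 5.43 to 17.7 CPM with IL-6, a ratio of IL-6 to OSM of 26.0 (exact 95% interval 8.58 to 128, adjusted p = 0.00193). The pentraxin NPTX1 was at 0 to 3.30 CPM against 6.96 to 16.4 CPM (-3.40 ± 0.63, adjusted p = 0.000425), LUZP2 at 4.12 to 11.0 CPM against 45.1 to 66.4 CPM (-2.57 ± 0.46, adjusted p = 0.000252).

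Further genes of this group were close to the detection limit with OSM. ANXA10, an annexin, had a single count over the OSM libraries and 1.71 to 9.06 CPM with IL-6, a ratio of 28.7 (exact 95% interval 4.79 to 1171, adjusted p = 0.0108). Its adjusted p was 0.0579 without OSM replicate 1, 0.0502 without OSM replicate 3 and 0.0562 without IL-6 replicate 4. CREB5, a transcription factor, was at 0.609 to 2.47 CPM with OSM and 6.54 to 14.3 CPM with IL-6 (-2.71 ± 0.57, adjusted p = 0.00214). ITGA6, an integrin subunit that binds laminin, was at 0 to 3.34 CPM against 5.70 to 19.3 CPM (-2.81 ± 0.74, adjusted p = 0.0226), and lost its call without OSM replicates 1 (0.127), 2 (0.0518) or 4 (0.0878) or IL-6 replicates 2 (0.0673) or 4 (0.0977). CCDC144NL-AS1, an antisense RNA, was at 3.30 to 4.26 CPM against 15.0 to 22.3 CPM (-2.24 ± 0.52, adjusted p = 0.00638), and without strand its reads cannot be told apart from those of an overlapping gene.

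**Figure D4:**
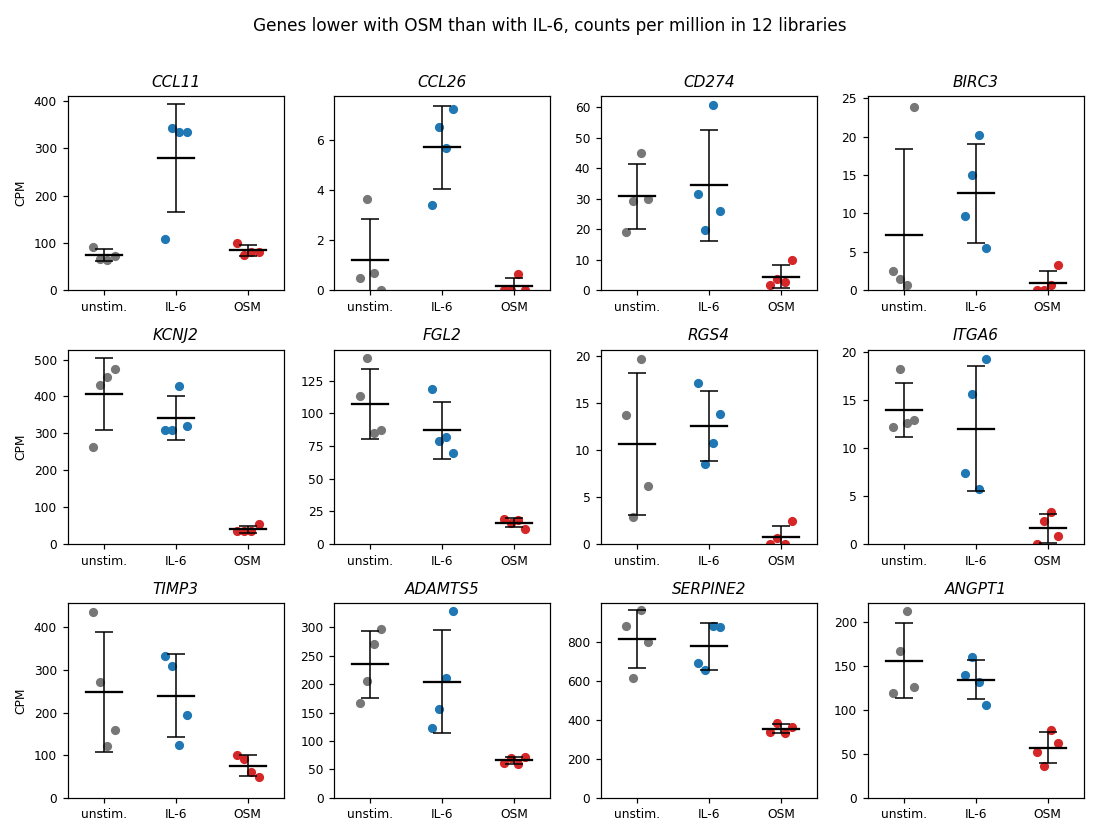
CPM of 12 genes lower with OSM than with IL-6 on the y axis, each panel with its own scale, for unstimulated, IL-6 and OSM on the x axis. Points are single libraries, the horizontal line is the mean of 4 and the bars are the SD. In every panel the 4 OSM libraries lie below the 4 IL-6 libraries, and CCL11 is the panel in which IL-6 also lies above all unstimulated libraries.

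Genes of matrix turnover moved in both directions. Of 23 tested proteases and inhibitors, 2 rose, 3 fell and 18 did not pass, with a median of 0.09. Beside TIMP1, PLAU, the urokinase that activates plasminogen, rose from 117 to 193 CPM with IL-6 to 266 to 340 CPM with OSM (1.04 ± 0.21, adjusted p = 0.00166). TIMP3, an inhibitor bound to the matrix, was at 99.9, 91.3, 60.7 and 47.8 CPM with OSM and at 332, 309, 124 and 194 CPM with IL-6 (-1.67 ± 0.33, adjusted p = 0.00116). Without OSM replicate 4 or IL-6 replicate 1 the log2 fold change of TIMP3 was -1.5 or -1.46, under the fold threshold. ADAMTS5, an aggrecanase, was at 60.0 to 72.6 CPM with OSM and at 123, 157, 210 and 328 CPM with IL-6 (-1.64 ± 0.23, adjusted p = 5.04e-06), and at -1.32 without IL-6 replicate 4. SERPINE2, an inhibitor of thrombin and urokinase, was at 332 to 386 CPM against 656 to 881 CPM (-1.13 ± 0.16, adjusted p = 4.71e-06). MMP1 and MMP3, the collagenase and stromelysin of fibroblasts, had log2 fold changes of -0.22 and -0.63 and did not pass.

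Of 29 tested collagen and matrix genes, 1 rose and 0 fell, with a median of -0.15. That gene was THBS1, thrombospondin-1, at 1967 to 3472 CPM with OSM and 899 to 1272 CPM with IL-6 (1.31 ± 0.27, adjusted p = 0.00141). Of 18 tested genes of the contractile program, 0 rose and 1 fell, TPM1, a tropomyosin (-0.59, adjusted p = 0.0268), with a median of -0.21. The adjusted p of TPM1 was above 0.05 without any 1 of 6 libraries, OSM replicates 1 to 3 and IL-6 replicates 1 to 3, and reached 0.113. It was 0.0737 when all genes with any count were tested. ACTA2, smooth muscle actin, had a log2 fold change of -0.37 (adjusted p = 0.785).

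Enzymes of tryptophan, steroid and xenobiotic metabolism were divided. Of 10 tested members, 3 rose (TDO2, CYP1B1 and WARS1) and 2 fell (AKR1C2 and AKR1C3), with a median of 0.11. CYP1B1, a cytochrome P450 that oxidises oestrogens, was at 29.8, 36.2, 55.4 and 47.8 CPM with OSM and at 3.43, 10.5, 15.2 and 13.3 CPM with IL-6 (1.99 ± 0.54, adjusted p = 0.0292). Without any 1 of OSM replicates 2, 3 and 4 and IL-6 replicates 1, 2 and 4 its adjusted p was above 0.05, up to 0.134. WARS1, the tryptophanyl-tRNA synthetase, was at 659 to 1158 CPM with OSM and 271 to 437 CPM with IL-6 (1.35 ± 0.24, adjusted p = 0.000217). AKR1C3 was at 0 to 3.65 CPM with OSM and 5.14 to 24.1 CPM with IL-6 (-2.91 ± 0.74, adjusted p = 0.0163), and lost its call without OSM replicates 2 (0.0874) or 4 (0.0696) or IL-6 replicate 4 (0.085). AKR1C2 overlapped between the groups (-2.14, adjusted p = 0.0481), with adjusted p-values up to 0.202 when 1 library was left out, namely OSM replicate 2 or 4 or IL-6 replicate 2, 3 or 4. Its adjusted p was also above 0.05 with the replicate number as a block (0.0579), with DESeq2 size factors (0.0534) and with only the 8 libraries in the fit (0.107). These near-identical reductases can share reads.

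Of 39 tested members of the interferon-linked list 2 rose, 1 fell and 36 did not pass, with a median of 0.07. The list does not hold IFITM1, IFITM3, IFI16 and XAF1. IFITM3, IFI16 and XAF1 are described apart from it. IFITM1, named for its motif match alone, was called higher with OSM (log2 fold change 1.97, adjusted p = 3.25e-06). Beside WARS1, HLA-B, a class I antigen-presenting molecule, was at 43.3 to 51.4 CPM with OSM and 24.0 to 39.9 CPM with IL-6 (0.74 ± 0.20, adjusted p = 0.0254). GBP1, a guanylate-binding protein, was at 172 to 228 CPM against 276 to 356 CPM (-0.58 ± 0.16, adjusted p = 0.0368). The adjusted p of HLA-B reached 0.109 without OSM replicates 1, 3 or 4 or IL-6 replicates 1, 2 or 4, and that of GBP1 was above 0.05, and up to 0.198, without any 1 of the 8 libraries other than IL-6 replicate 1. When all genes with any count were tested, the adjusted p was 0.162 for HLA-B and 0.0846 for GBP1, and with only the 8 libraries in the fit it was 0.085 for HLA-B. HLA genes are similar in sequence and their reads are divided by estimation. Of 18 tested genes of the MAPK response, 1 rose and 1 fell, with a median of -0.32. PHLDA1 was at 294 to 436 CPM against 187 to 255 CPM (0.87 ± 0.18, adjusted p = 0.00145), and EGR1, an immediate early transcription factor, was at 278 to 479 CPM against 763 to 879 CPM (-1.0 ± 0.29, adjusted p = 0.0498). The adjusted p of EGR1 was above 0.05 without any 1 of the 8 libraries, up to 0.235, and also with DESeq2 size factors (0.0568) and at a filter of 10 counts in 4 libraries (0.0555).

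Among growth factors and their binding proteins, 2 of 27 tested genes rose and 1 fell, with a median of -0.12. IGFBP4, which binds insulin-like growth factors, was at 195 to 225 CPM with OSM and 88.3 to 132 CPM with IL-6 (0.89 ± 0.22, adjusted p = 0.0163). GREM1, an antagonist of bone morphogenetic proteins, was at 377 to 499 CPM against 255 to 296 CPM (0.69 ± 0.18, adjusted p = 0.0169). The adjusted p was above 0.05 without OSM replicate 2 or IL-6 replicate 2 for IGFBP4 (up to 0.0843), and without OSM replicates 1 or 2 or IL-6 replicates 3 or 4 for GREM1 (up to 0.0699). ANGPT1, a ligand of the endothelial receptor TIE2, was at 52.4, 36.2, 77.4 and 61.9 CPM with OSM and at 140, 160, 132 and 106 CPM with IL-6 (-1.24 ± 0.20, adjusted p = 6.36e-05). Of 16 tested cell cycle genes 0 passed, with a median of -0.50.

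Of a list of 13 markers that the study names for inflammatory fibroblasts, all were tested, 1 rose (CXCL6) and 0 fell, with a median of 0.21. The list does not hold every such gene in the study. CHI3L1, which the study lists for states resembling these fibroblasts, was called higher with OSM. TNC, which it lists among their secreted proteins, did not pass. Among the fibroblast markers DCN, the proteoglycan decorin, rose by 0.47 ± 0.14 on the log2 scale (adjusted p = 0.0487), and the other 11 did not pass. The adjusted p of DCN was above 0.05 without OSM replicates 1, 2 or 3 or any 1 IL-6 library (up to 0.194), and when all genes with any count were tested (0.0931). TUBB3, a tubulin of neurons that some other cells also make, was at 50.5, 55.7, 33.4 and 32.2 CPM with OSM and at 13.1, 19.6, 8.23 and 13.9 CPM with IL-6 (1.65 ± 0.41, adjusted p = 0.0136). Its adjusted p was 0.0527 without OSM replicate 1, 0.0693 without OSM replicate 2 and 0.076 without IL-6 replicate 3. The glial and neural list of 5 markers summed to 32.16 to 55.73 CPM with OSM, 8.227 to 19.62 with IL-6 and 8.749 to 12.66 without stimulation, and most of this was TUBB3. Its glial markers S100B and SOX10 were at 0 in all 12 libraries.

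**Figure D5:**
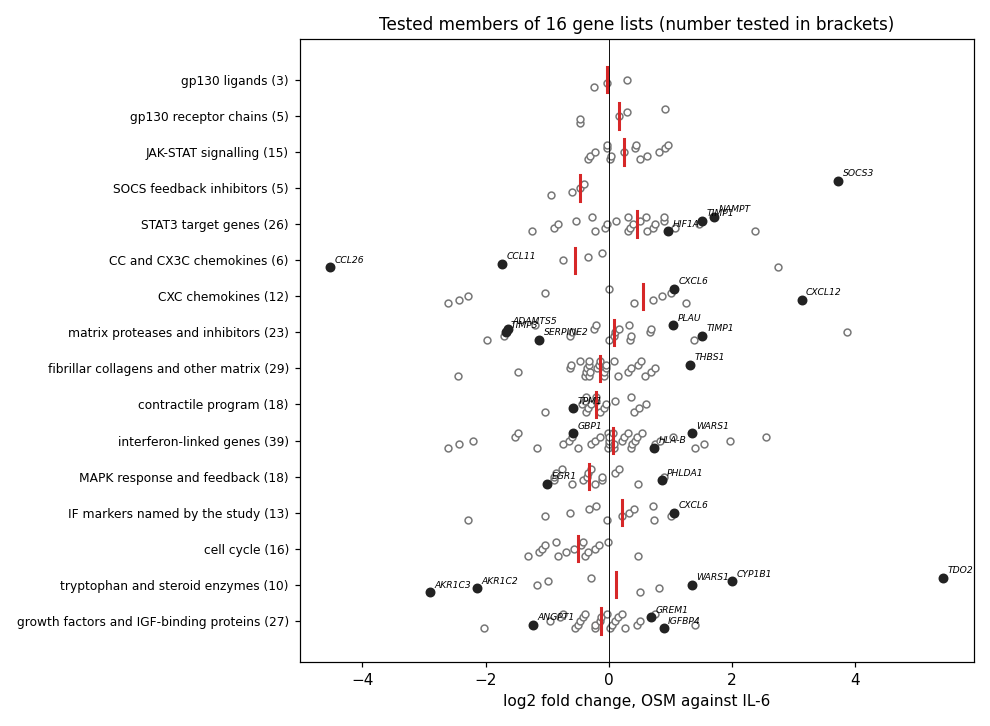
Log2 fold changes of OSM against IL-6 on the x axis for the tested members of 16 gene lists, 1 list per row. Each point is a gene, filled points pass an adjusted p of 0.05, and red bars mark the medians. The list medians lie between -0.54 for CC and CX3C chemokines and 0.56 for CXC chemokines, with 0 for all genes tested.

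The position of the IL-6 libraries was examined gene by gene in 220 genes, 80 higher and 140 lower with OSM. They passed an adjusted p of 0.05 in the same direction for OSM against IL-6 and against unstimulated cells. The 2 comparisons share the OSM libraries. Against unstimulated cells alone, OSM had 377 genes past an adjusted p of 0.05. Those that did not also differ from IL-6 were left out, among them any gene that IL-6 changed as far as OSM. The 220 therefore cannot show how often IL-6 followed OSM fully. All 4 IL-6 libraries lay between the 2 other groups in 3 of the 220, IFI16, CTSL and IFITM3, all higher with OSM. By direction, this was 3 of the 80 genes higher with OSM and 0 of the 140 lower ones. Over all genes tested, the IL-6 libraries cleared the unstimulated ones upward in 1.02% and downward in 1.16%. The small count of 3 was not tested against these shares. These 3 genes, and XAF1, OPTN and PSG5, were named after their values were seen. IFI16, a DNA sensor, was at 545, 571, 635 and 490 CPM with OSM, at 209, 262, 299 and 281 CPM with IL-6 and at 164, 174, 198 and 190 CPM without stimulation. It was higher with OSM than with IL-6 by 1.09 ± 0.15 (adjusted p = 4.24e-06), and IL-6 against unstimulated cells gave 0.53 (unadjusted p = 0.00121, adjusted p = 1). CTSL, the lysosomal protease cathepsin L, was at 324, 373, 326 and 309 CPM with OSM, at 107, 124, 131 and 151 CPM with IL-6 and at 102, 61.2, 76.7 and 90.2 CPM without stimulation. Its log2 fold change was 1.38 ± 0.20 against IL-6 (adjusted p = 7.61e-06), and 0.63 for IL-6 against unstimulated cells (unadjusted p = 0.0033, adjusted p = 1).

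IFITM3, a membrane protein that restricts viral entry and has near-identical relatives, was at 887, 702, 645 and 594 CPM with OSM. It was at 282, 280, 278 and 258 CPM with IL-6 and at 257, 211, 185 and 173 CPM without stimulation. The 3 groups did not overlap, and the log2 fold change of OSM against IL-6 was 1.37 ± 0.15 (adjusted p = 1.45e-08). IL-6 against unstimulated cells gave 0.41 (unadjusted p = 0.00856, adjusted p = 1). None of the 3 genes passed for IL-6 against unstimulated cells.

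In 4 of the same 220 genes, 2 higher and 2 lower with OSM, all IL-6 libraries lay beyond the unstimulated ones on the side away from OSM. The required difference between OSM and IL-6 favours such genes. Their number was not tested against the 1.02% and 1.16% over all genes. XAF1, an antagonist of the inhibitor of apoptosis XIAP, was at 33.4 to 41.4 CPM with OSM, 10.1 to 12.1 CPM with IL-6 and 12.2 to 21.9 CPM without stimulation (1.68 ± 0.33 against IL-6, adjusted p = 0.00102). CCK was the other gene higher with OSM, with unstimulated cells at 1.41 to 4.41 CPM. OPTN, the autophagy receptor optineurin, was at 45.4 to 57.7 CPM with OSM, 94.9 to 113 CPM with IL-6 and 71.8 to 85.3 CPM without stimulation (-1.03 ± 0.17, adjusted p = 7.19e-05). PSG5, a pregnancy-specific glycoprotein with close relatives, was at 74.1 to 123 CPM with OSM, 190 to 228 CPM with IL-6 and 150 to 176 CPM without stimulation (-1.25 ± 0.23, adjusted p = 0.000315).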

How the data were processed

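Colon fibroblasts of the line Ccd-18Co were measured by bulk RNA-seq, in 44 libraries of 11 groups with 4 replicates each. Cells were seeded at 25000 per well and starved of serum before stimulation. Per the labels and the methods, RNA was extracted with a Qiagen or Zymo kit, libraries were made with NEBNext Ultra II and sequenced on a NovaSeq6000. Reads were assessed in FastQC (version 0.11.9) and MultiQC (version 1.14). Quantification was by kallisto (version 0.48.0), and the authors deposited estimated counts per gene symbol that are not scaled for depth. The submitters' notes name hg38, and the transcriptome release and the use of strand are not given in the sources used here. Of the 40663 symbols 16928 were at 0 in all libraries, and 5.77% of values were not whole numbers. Of 18 replicate pairs compared 0 were identical, and the lowest chi-square per degree of freedom was 3.21.

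Estimated counts were rounded to whole numbers. In R (version 4.3.3), edgeR (version 4.0.16) kept 9513 genes (filterByExpr with 11 groups), normalized by trimmed means of M values and fitted all 44 libraries in a quasi-likelihood model with 1 coefficient per group (common biological coefficient of variation 0.331). OSM was compared with IL-6, and each with unstimulated cells, with Benjamini-Hochberg adjustment over all genes in each comparison. Calls needed an adjusted p below 0.05 and a log2 fold change beyond 1.5 in either direction. SEs are the log2 fold change over the root of the F statistic. The median count per tested gene was 33 with OSM and 36 with IL-6, and 3 counts correspond to 1.47 to 2.47 CPM. For groups with 1 to 3 counts, ratios of depth-adjusted counts carry exact 95% intervals. These and the detection limits allow for counting error alone, and PCR copies of a molecule count as separate reads.

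The genes named are the 15 with the largest positive and the 15 with the largest negative log2 fold change among called genes with no overlap between groups and a mean log2 CPM of at least 1, the genes past an adjusted p of 0.05 for IL-6 against unstimulated cells, and list members that passed. Other list members, and genes singled out by the position of IL-6 between the groups, were named after their values were seen. Some list members are not reported here. Gene lists and comparison were chosen with earlier results of these data known. Coordinates come from GENCODE 44 on GRCh38 and upstream windows from RefSeq (GRCh38.p14). In simulated counts of OSM against IL-6 over 9280 genes, edgeR called 80 of 100 genes changed by a log2 fold of 2 and 92 of 100 changed by 3, with 6 unchanged genes called. The changed genes were drawn only from those above a minimum mean CPM over OSM and IL-6. These rates therefore do not cover genes of lower mean, among them CCL26, ANXA10 and ACKR3. The alternatives were DESeq2 (version 1.42.0) size factors and Wald test, other filters and fold thresholds, only the 8 libraries compared, the replicate number as a block and each replicate left out. The other cytokine groups entered the fit and are otherwise not analysed here.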

Additional observations from a re-analysis of the deposited data

Results flagged for a closer look

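CCL11 responded differently to the 2 cytokines, since the contrast of OSM with IL-6 itself passed the test (log2 fold change -1.73, adjusted p = 0.000196 in edgeR), with IL-6 above unstimulated cells and OSM near them. Within its group, IL-6 replicate 1 stood apart from the other 3 IL-6 libraries in CCL11, at 109 CPM. LBP was below the filter on low counts and so outside the tests, and had 38 counts over the 4 OSM libraries, 0 over the 4 IL-6 libraries and 1 over the 4 unstimulated ones.

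Each named gene was also checked for a library that lay far from the other 3 of its group, where the gap to the nearest library divided by the range of the group exceeded Dixon's critical value for groups of 4 at 95%. Of 162 groups of 4 tested, 19 had such a library, and chance alone gives about 1 in 20. Among genes higher with OSM, these were OSM replicate 4 in WNT2 (14.8 CPM), IL-6 replicate 4 in WNT2 (0.604 CPM), IL24 (2.42 CPM), TEX29 (0 CPM) and PHLDA1 (255 CPM), OSM replicate 1 in NAMPT (576 CPM), unstimulated replicate 2 in DNAH5 (4.37 CPM) and unstimulated replicate 1 in TIMP1 (2061 CPM). Among genes lower with OSM, they were OSM replicate 3 in CCL26 (0.667 CPM), OSM replicate 2 in ANXA10 (0.593 CPM), OSM replicate 1 in ACKR3 (1.22 CPM) and OSM replicate 4 in KCNJ2 (54.4 CPM) and LUZP2 (4.12 CPM). IL-6 replicate 3 stood apart in ACKR3 (7.59 CPM) and KCNJ2 (429 CPM), IL-6 replicate 1 in AKR1C2 (6.85 CPM), unstimulated replicate 4 in BIRC3 (23.9 CPM) and unstimulated replicate 2 in ITGA6 (18.2 CPM). Several of these values are 0 or a few counts, and the part that counting plays in them was not tested.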

How the results depend on the processing

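The number of genes called for OSM against IL-6 (97) was within 1.5 times that value under 6 alternatives and when any 1 library was left out (72 to 93), with 90 genes at DESeq2 size factors, 109 by DESeq2's Wald test and 137 among all genes with any count. It was 183 at a log2 fold threshold of 1 and 254 with none. With only the 8 libraries compared, 105 genes were called, 54 higher and 51 lower, against 40 and 57. OSM against unstimulated cells gave 124 genes, 249 at a fold threshold of 1, 377 with none and 95 to 165 with 1 library left out. IL-6 against unstimulated cells gave 1 gene, 10 among all genes with any count, and 0 with only the 8 libraries in edgeR, where 186 genes had an unadjusted p under 0.05. It gave 1 to 1 with 1 library left out. The causes of these shifts were not tested, apart from the fold thresholds, which act by construction. No scaling moved the median log2 fold change of all genes by more than 0.028. Leaving out 1 library gave distances of 24.48 to 25.65 between OSM and IL-6, 25.18 to 27.37 between OSM and unstimulated cells and 14.85 to 16.55 between IL-6 and unstimulated cells. Of 54 named genes, 31 kept their side of the threshold in every setting that assessed them, other than the fold thresholds, and 0 reversed. DESeq2 gave no adjusted p for 3 of the 54. Not every gene was assessed in all 14 settings, for example WNT2 and MAP2 in 13 and ACKR3 in 12. No source says that replicate numbers mark a shared day or culture, and the numbers were not taken as pairs. Deviations of same-numbered OSM and IL-6 libraries correlated at 0.212, -0.025, -0.006 and 0.062 over 7114 genes. In 1 of the 4 numbers the library correlated best with its own number. For OSM and unstimulated libraries the correlations were 0.341, -0.019, -0.03 and 0.093, with 1 of 4 best with its own number. For IL-6 and unstimulated libraries they were higher, at 0.406, 0.049, 0.197 and 0.11, with 3 of 4 best with their own number. The source of these correlations was not tested. With the replicate number as a block, 98 genes were called for OSM against IL-6, 92 of them shared with the 97, 125 for OSM and 1 for IL-6 against unstimulated cells. Of the named genes, AKR1C2 alone no longer passed under the block.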

Other observations

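The chemokine genes CXCL8 and CXCL10 and the ubiquitin-like gene UBD were looked at after their values were seen, because IL-6 replicate 1 had stood apart in CCL11. CXCL8 was at 13.7 CPM in IL-6 replicate 1 and at 113, 135 and 229 CPM in the other 3. UBD was at 0 CPM in IL-6 replicate 1, at 4.58, 2.53 and 4.23 CPM in the other 3, and at 0 CPM in all OSM and unstimulated libraries. CXCL10 was at 5.14, 14.4, 3.16 and 12.1 CPM in IL-6 replicates 1 to 4, so that replicate 1 was not the lowest. Without IL-6 replicate 1, CCL11 was higher with IL-6 than in unstimulated cells by 2.20 on the log2 scale (edgeR adjusted p = 1.07e-05).

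Levels with the other cytokines place some of the genes of the comparison. DIO2 reached 4544 ± 276 CPM with IL-1B (SD, n = 4), close to the 4069 ± 692 CPM with OSM, and 84.3 ± 27.7 CPM with IL-13. CXCL12 had its highest mean with OSM, at 285 ± 52.2 CPM, followed by IL-13 at 79.8 ± 11.6 CPM, and was at 3.30 ± 4.77 CPM with TNF. SOCS3 was at 33.6 ± 6.26 CPM with OSM and had means of at most 5.22 CPM in the other 10 groups. CD274 was at 92.7 ± 9.42 CPM with IFNG and at 4.49 ± 3.67 CPM with OSM, the lowest mean of the 11 groups. These differences between other cytokines were not tested.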
